A study of Mus musculus with 24 samples.

Results

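The 7 genes described are Gbp2b, Fbp2, Pdxdc1, Qsox1, Baiap2l1, Lrp5 and Xdh, which had been named in earlier work on these arrays as setting 2 inbred mouse strains apart. All probe sets that the array annotation gives to these 7 genes alone were taken, 11 of the 12488 on the array, and 10 of them were bright enough to test. The genes were chosen by their measured strain difference, so that difference is described here without a test. The label held for 6 of the 7 genes: the single Lrp5 probe set overlapped between the strains.

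Total RNA of mouse lung was measured on 24 arrays, 1 sample each, which form 12 groups of 2 marked a and b. The groups were the strains C57BL/6J and BALB/c, each with bleomycin, a DNA-damaging drug used to produce lung fibrosis, or with saline, and lungs taken 24 h, 72 h or 14 d later. Bleomycin had been instilled through the trachea at 1.5 U per kg. Both are inbred strains, and the labels name no allele, transgene or further agent. Age and sex were not given in the sources used here, nor whether arrays a and b came from separate animals or from pools, so p-values measure only the spread between these arrays, which may be technical. The titles of the BALB/c saline 72 h arrays say saline while their descriptions say bleomycin, and the titles were followed. For BALB/c saline 24 h, whose arrays are controls of the BALB/c results at 24 h and 72 h, the wording names bleomycin or saline, and that of the BALB/c bleomycin 24 h arrays lists several harvest times. There too the titles were followed. The series asks about the genetic basis of sensitivity to lung fibrosis, and the comparison of the strains is central to that question.

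Array medians lay between 313 and 408 intensity units, and arrays of a group correlated at 0.926 to 0.979. The C57BL/6J saline 24 h arrays stood apart in their brightest values, with maxima of 78641 and 43230 against 6888 to 21462 elsewhere. Their titles also end in s1, where those of all other arrays carry s2, and the titles do not say what the mark means. These arrays are controls of the C57BL/6J results at 24 h and 72 h. Of 6 markers of alveolar type 2 cells, the surfactant-producing cells of the lung, 3 were on the array, and their summed intensity was 5138 to 120990 over the 20 arrays outside the saline 72 h groups. The 4 saline 72 h arrays went against their strain labels. Of 5 genes listed as strain markers, 3 were on the array and 2 were tested, H2-Ea and Nnt. Outside saline 72 h only H2-Ea kept the strains apart, while Nnt overlapped. H2-Ea, a class II histocompatibility gene that C57BL/6J does not transcribe because of a promoter deletion, read 25.6 to 166 on the other 10 arrays labelled C57BL/6J and 2917 to 6068 on the other 10 labelled BALB/c. On the saline 72 h arrays it read 4821 and 3622 under the label C57BL/6J and 89.5 and 48.3 under the label BALB/c. Those 4 arrays are therefore named throughout as labelled. The strain order of the separating members and of Lrp5 is given with and without them. Strain ranges of tissue markers, neighbours and related genes leave them out.

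The members have unlike tasks. Gbp2b encodes a guanylate-binding protein, one of the large GTPases that interferons induce for defence within cells, and Fbp2 encodes the muscle form of fructose-1,6-bisphosphatase, an enzyme of glucose synthesis. Pdxdc1 encodes a protein with a pyridoxal-dependent decarboxylase domain, Qsox1 a secreted sulfhydryl oxidase that forms disulfide bonds, and Baiap2l1 an adaptor that links curved membrane to actin. Lrp5 is a co-receptor for Wnt ligands, and Xdh, xanthine dehydrogenase, makes uric acid at the end of purine breakdown and can turn into an oxidase.

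Several guanylate-binding protein genes sit close together on mouse chromosome 3. Gbp2b and its neighbour Gbp2 are shown because they differ on these arrays while their promoter windows hold the same short element. The windows run from 250 bases before to 50 bases after each gene start, on the plus strand of RefSeq build GRCm38.p6, which is the C57BL/6J genome. Capitals mark the motif GAAANNGAAA, the core of an interferon-stimulated response element, searched on both strands and read here from the reverse strand.
Gbp2b: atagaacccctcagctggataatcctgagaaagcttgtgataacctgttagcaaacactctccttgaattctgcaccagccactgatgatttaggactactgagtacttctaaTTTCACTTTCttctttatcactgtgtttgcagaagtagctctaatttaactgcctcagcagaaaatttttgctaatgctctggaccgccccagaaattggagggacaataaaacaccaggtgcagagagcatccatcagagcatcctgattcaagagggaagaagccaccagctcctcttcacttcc
Gbp2: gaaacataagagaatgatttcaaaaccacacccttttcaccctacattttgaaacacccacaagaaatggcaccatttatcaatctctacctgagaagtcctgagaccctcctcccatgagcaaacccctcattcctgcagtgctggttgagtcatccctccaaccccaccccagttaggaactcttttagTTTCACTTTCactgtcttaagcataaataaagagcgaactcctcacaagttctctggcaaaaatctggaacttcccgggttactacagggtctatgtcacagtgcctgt
The Gbp2b window is chr3:142594597-142594896, and its match starts 137 bases before the gene start. The Gbp2 window is chr3:142620413-142620712, and its match starts 59 bases before the gene start. Of 10 other interferon-induced GTPases with a promoter entry, 9 held the motif in at least 1 window, against 1131 of all 32851 promoter windows (3.44%). Of the 5 members with an entry, only Gbp2b held it. A match is a run of letters, and factor binding was not measured. The BALB/c sequence was not used here.

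Gbp2b was near the bottom of the scale in C57BL/6J and bright in BALB/c. Over the 20 arrays outside saline 72 h, probe set 95974_at had a lowest, median and highest intensity of 6.42, 12.1 and 45.6 in C57BL/6J and 742, 1102 and 1655 in BALB/c (n = 10 each). No array of one strain reached into the range of the other, and the C57BL/6J mean was lower by a log2 difference of -3.44, taken after adding an offset of 92 that damps differences at low intensity. All 10 C57BL/6J values lay under the lower quartile of their own array, and no detection call was used, so they are low readings and not proof of absence. In bulk lung, fewer cells of a type and less RNA per cell cannot be told apart, here and below. Gbp2, the next gene, had medians of 1829 in C57BL/6J and 1277 in BALB/c with overlapping ranges, and Gbp3 and Gbp7 also overlapped.

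Fbp2 followed the same order. Probe set 97379_at had a lowest, median and highest intensity of 19.5, 28.8 and 93.9 in C57BL/6J and 518, 637 and 923 in BALB/c, a log2 difference of -2.58. The strains did not overlap, and the highest C57BL/6J value came from bleomycin 14 d array b. Fbp1, the adjacent gene for the liver form of the enzyme, read 16.3 to 76.5 (median 28.5) in C57BL/6J and 61.5 to 393 (median 139) in BALB/c. Its ranges overlapped. Markers of heart and skeletal muscle, where Fbp2 is best known, were summed over all 20 listed genes: the sum was 9228 to 20242 in C57BL/6J and 16298 to 24143 in BALB/c, and no marker was at 0. Within strains, Fbp2 and that sum correlated at -0.04 in C57BL/6J and -0.65 in BALB/c (Pearson r over 10 arrays each, described without a test). One of the 14 tested muscle markers, Myh7, a cardiac myosin heavy chain read by a probe set that the array design marks as shared within a gene family, also separated the strains, at 652 to 2109 against 2175 to 3036. The part of muscle tissue in the Fbp2 difference was not tested.

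Pdxdc1 had 3 probe sets, and they did not agree. Probe set 97713_at read 35.7, 66.3 and 158 (lowest, median, highest) in C57BL/6J and 3353, 4705 and 5583 in BALB/c, a log2 difference of -4.74 that was the widest among the members on this scale. Without the offset Gbp2b was wider: the strain medians differed 90.8-fold for Gbp2b and 71.0-fold for this probe set, both against low readings in C57BL/6J. Probe set 160163_at ran the other way, with 1034, 1356 and 1691 in C57BL/6J and 144, 335 and 439 in BALB/c (1.83). Probe set 94312_at ran with the latter, with 468, 814 and 1045 in C57BL/6J and 121, 199 and 273 in BALB/c (1.59). Each of the 3 kept the strains apart without overlap, but 1 placed BALB/c on top and 2 placed C57BL/6J on top.

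**Figure D1:**
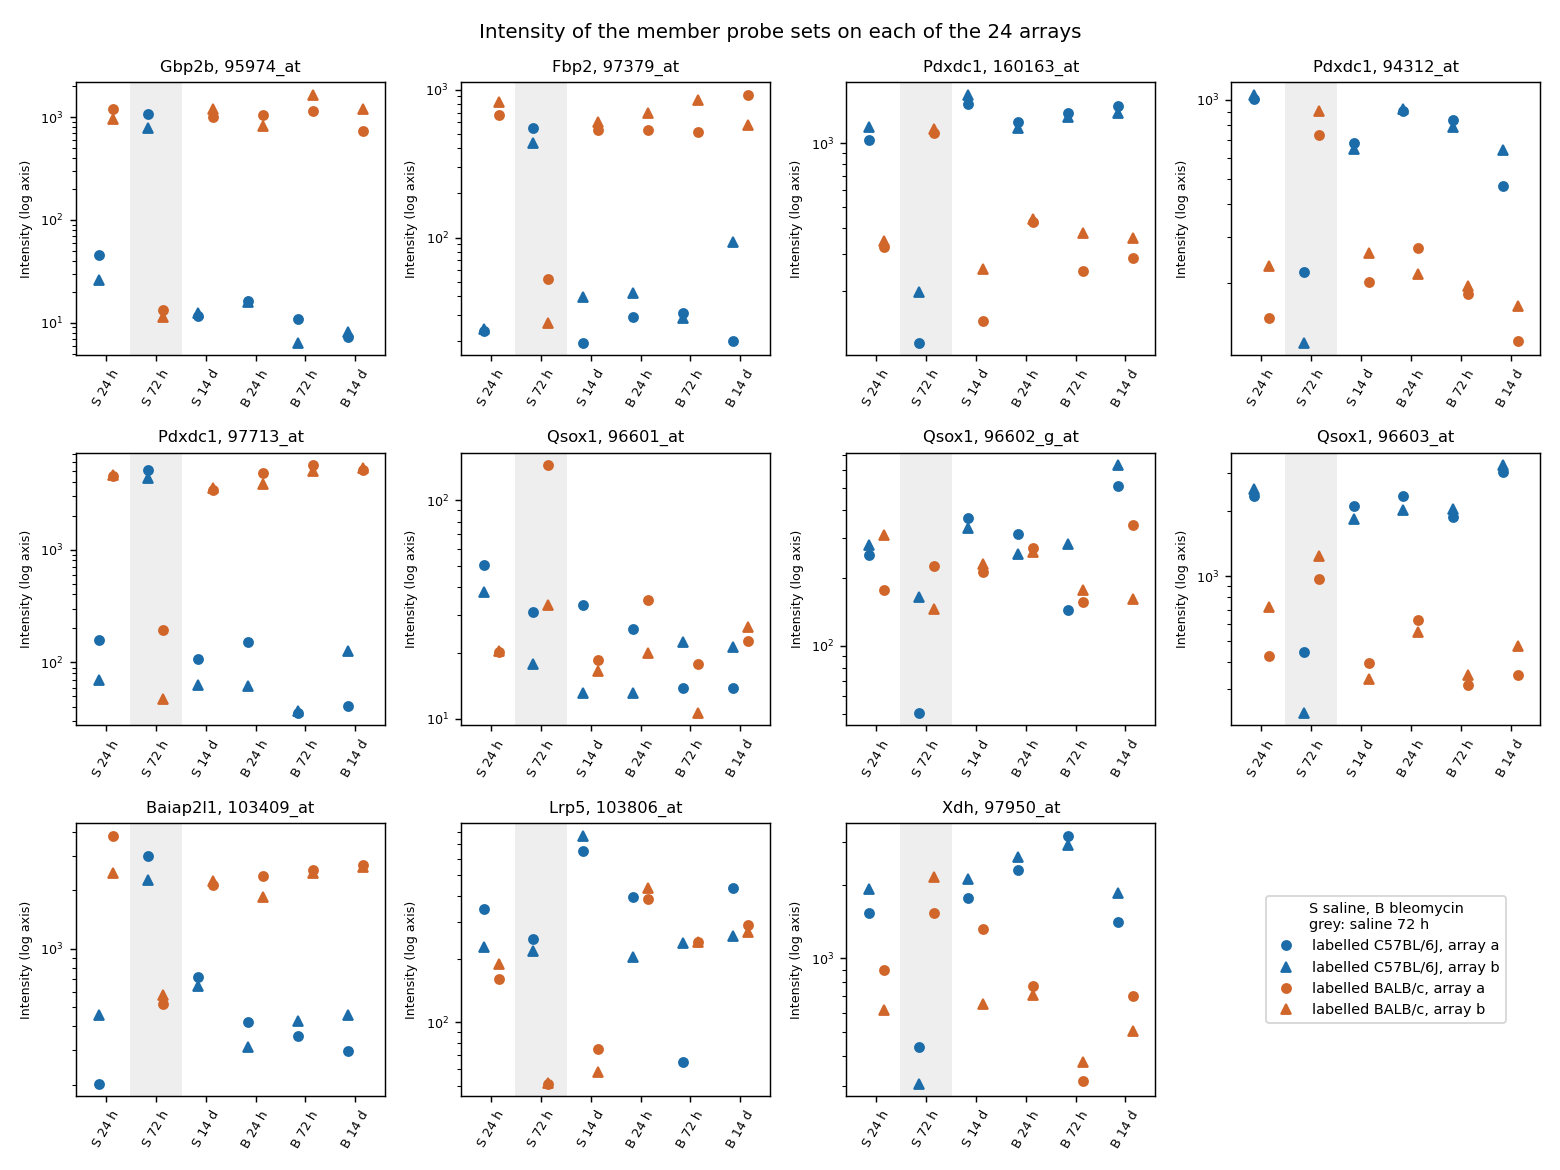
Intensity (log axis) of the 11 member probe sets on each of the 24 arrays, by labelled group; circles are arrays a, triangles arrays b, blue the label C57BL/6J, orange BALB/c, and grey the saline 72 h groups. In 8 panels the colours stay apart outside the grey band and change places within it, while Lrp5 and both dimmer Qsox1 probe sets overlap.

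Of 3 Qsox1 probe sets, 2 were tested and 1 was too dim. Probe set 96603_at had a lowest, median and highest intensity of 1842, 2223 and 3266 in C57BL/6J and 312, 411 and 718 in BALB/c, a log2 difference of 2.17 without overlap. Probe set 96602_g_at read 144, 297 and 628 in C57BL/6J and 156, 220 and 343 in BALB/c. Those ranges overlapped, with a log2 difference of 0.37 in the same direction. Probe set 96601_at never passed 145 on any array and read at most 50.8 in C57BL/6J and 34.8 in BALB/c outside saline 72 h.

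Baiap2l1 was brighter in BALB/c and Xdh in C57BL/6J. For Baiap2l1, probe set 103409_at read 203, 424 and 713 in C57BL/6J and 1854, 2470 and 3826 in BALB/c, a log2 difference of -2.36 with no overlap. For Xdh, probe set 97950_at read 1405, 2010 and 3169 in C57BL/6J and 316, 679 and 1317 in BALB/c, a log2 difference of 1.56. Xdh had the narrowest gap: its lowest C57BL/6J array, 1405 at bleomycin 14 d, lay 1.07-fold above its highest BALB/c array, 1317 at saline 14 d.

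Lrp5 did not separate the strains. Probe set 103806_at read 64.8, 302 and 770 in C57BL/6J and 58.1, 241 and 433 in BALB/c. The ranges overlapped over most of their span, and the log2 difference of 0.42 was smaller than the within-strain SD of log2 values, 0.71 in C57BL/6J and 0.59 in BALB/c (n = 10 each). By condition, the 2 arrays of each strain ordered C57BL/6J above BALB/c in 3 of the 6 conditions and BALB/c above C57BL/6J in 1, and crossed in 2. One of the 3 was saline 72 h as labelled; without it the counts were 2 and 1 of 5 conditions, and with its strain labels exchanged 2 and 2 of 6. The wide separation of saline 14 d, where C57BL/6J read 651 and 770 and BALB/c 74.4 and 58.1, did not recur after bleomycin.

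In all, 8 of the 10 tested member probe sets kept the 10 arrays of one strain clear of the 10 of the other. Over all 8710 tested probe sets the share was 1.02%, with 0.482% higher in C57BL/6J and 0.54% higher in BALB/c. The members were picked for this contrast, so nothing is read from the count. Taking all 24 arrays as labelled, 0 of the member probe sets separated, and with the strain labels of the saline 72 h arrays exchanged the count was again 8.

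The reversal on the saline 72 h arrays touched every separating probe set. Gbp2b read 1085 and 791 on the arrays labelled C57BL/6J (a and b) and 13.4 and 11.3 on those labelled BALB/c. Fbp2 read 549 and 435 against 52.2 and 26.4. Baiap2l1 read 3006 and 2274 against 520 and 581. These 3 genes, brighter in BALB/c elsewhere, were brighter under the label C57BL/6J here.

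The genes that were brighter in C57BL/6J turned likewise. Xdh read 434 and 308 on the saline 72 h arrays labelled C57BL/6J and 1527 and 2154 on those labelled BALB/c. Qsox1 probe set 96603_at read 446 and 232 against 972 and 1242. The Pdxdc1 probe sets turned too, each in its own direction: 97713_at read 5027 and 4259 against 193 and 47.5, 160163_at 115 and 199 against 1112 and 1163, and 94312_at 221 and 119 against 732 and 906. Lrp5, at 247 and 219 against 51.1 and 51.2, kept the order of its saline 24 h and saline 14 d arrays.

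To place each array, its log2 value was set between the strain medians of the 20 other-condition arrays, with 0% at its own labelled strain and 100% at the other strain. On the saline 72 h arrays 31 of 32 positions lay past the midpoint, with array medians over the 8 probe sets of 101% and 113% (labelled C57BL/6J, a and b) and 87.2% and 101% (labelled BALB/c). The single exception was Qsox1 96603_at on BALB/c-labelled array a, at 49.1%. On the other 20 arrays 1 of 160 positions lay past the midpoint, Xdh on BALB/c saline 14 d array a at 61.5%, and array medians lay between -8.14% and 12.9%. The arrays were placed by genes picked for strain, and their labels were not changed. How these 4 arrays came to read against their labels was not tested.

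**Figure D2:**
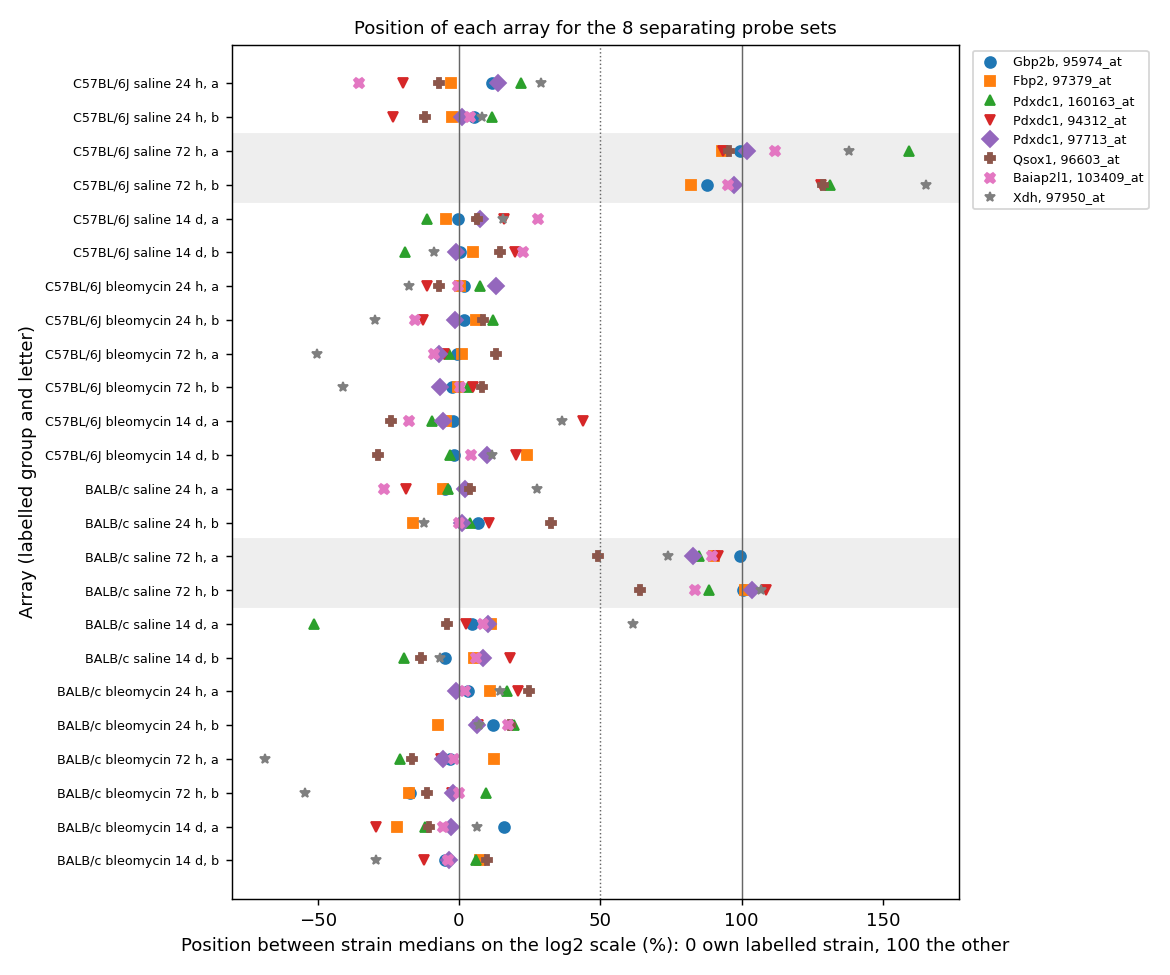
Position of each array (rows, by labelled group and letter) for the 8 separating probe sets, as a percent of the distance on the log2 scale from the median of its own labelled strain (0) to that of the other (100); the dotted line is the midpoint and grey bands are the saline 72 h arrays. Of 32 points in the grey bands 31 lie past the midpoint, against 1 of 160 elsewhere.

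Whether the probe sets of a gene agree was followed within strains as well as between them. Over the 20 arrays outside saline 72 h, Pdxdc1 97713_at correlated at -0.95 with 160163_at and -0.94 with 94312_at, and the latter pair at 0.89 (Pearson r of log2 values, arrays sharing strain). After each strain's mean was subtracted the same pairs gave 0.04, 0.05 and -0.23. The probe sets of Pdxdc1 were thus tied to one another through the strain difference and moved apart from it within strains. For Qsox1, 96602_g_at and 96603_at correlated at 0.59 before and 0.59 after the subtraction, so they shared a pattern over the arrays although only 96603_at separated the strains.

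Opposite probe sets were searched for over the whole array. They can show only in genes with 2 or more separating probe sets, and those genes were not counted. Of 1152 genes with 2 or more tested probe sets of their own, 25 had at least 1 that separated the strains. In 2 of the 25, Pdxdc1 and Ctse, separating probe sets pointed opposite ways, and in 2 every tested probe set separated the same way. Ctse, which encodes the protease cathepsin E, was found by this search and was not fixed beforehand. Probe sequences and strain variants were not used here, so base differences under the probes were not tested for Pdxdc1 or any other member. The levels of Pdxdc1 transcript in the strains therefore have no settled order in these data.

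**Figure D3:**
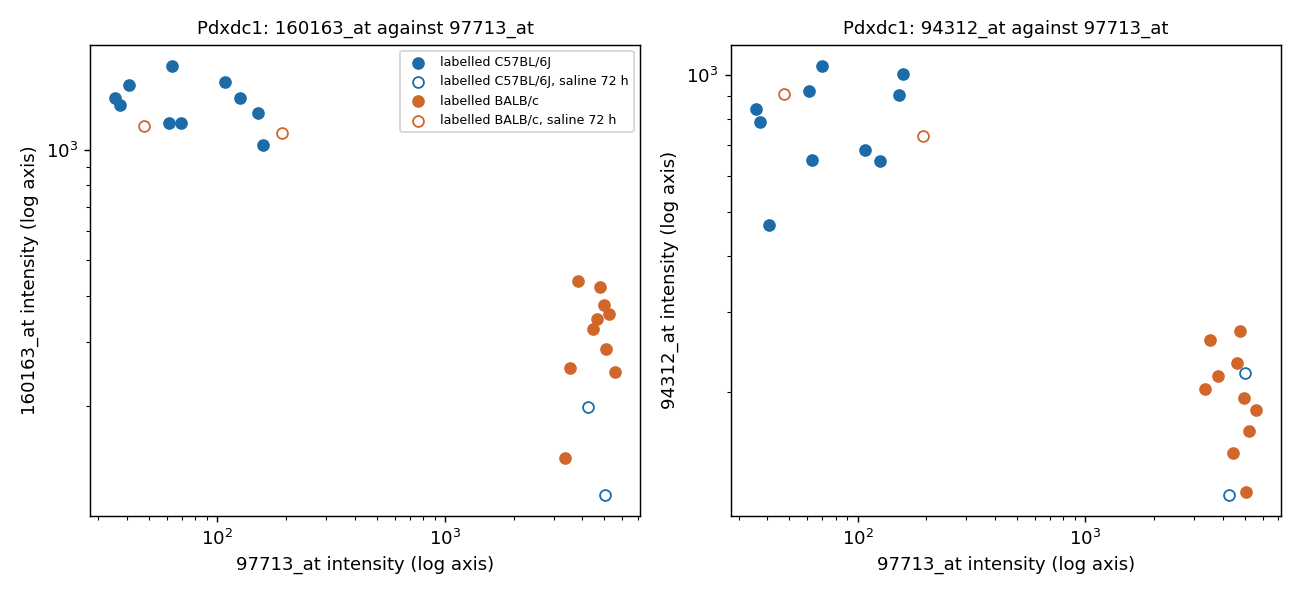
Pdxdc1 probe sets 160163_at (left) and 94312_at (right) against 97713_at, intensity on log axes, 1 point per array; open circles are the saline 72 h arrays. The strains form 2 clusters on opposite corners, and the open circles of each label lie in the cluster of the other.

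Likeness to other genes was measured over all 24 arrays as labelled, by Pearson r of log2 values, as a description in which the strain split is shared by all points. Gbp2b was most like Pdxdc1 97713_at (0.987), H2-Ea (0.985) and Fbp2 (0.973), and Fbp2 and Pdxdc1 97713_at had H2-Ea at 0.986 and 0.988. Baiap2l1 was most like Alad (0.961), an enzyme of heme synthesis, and H2-Ea (0.960). On the C57BL/6J side, Qsox1 96603_at was most like Ctsc (0.932), the protease cathepsin C, and Arl2bp (0.929), and Xdh like Tbc1d15 (0.923) and Kif5b (0.886), a kinesin motor, with Mir686 (0.905) between them. Lrp5 stood apart: its nearest were Mark2 (0.891), a kinase of microtubule-associated proteins, Supt5 (0.863) and Psme3 (0.828), none of which separated the strains.

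Once the strain means were subtracted over the 20 arrays, the nearest genes changed for every member except Lrp5, whose first was again Mark2 (0.909), followed by Pkd1 (0.850), the polycystin gene. Gbp2b was then nearest to Adamdec1 (0.820), Fbp2 to Ap1s1 (0.734), Pdxdc1 97713_at to Baz1b (0.776) and Qsox1 96603_at to Slc25a39 (0.844). Baiap2l1 was nearest to Arpp19 (0.835) and Xdh to Pam (0.831). None of these 8 genes separated the strains.

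The nearest measured genes around the members, which lay up to 84 genes away in the gene order, were compared in the same way. Among 69 measured neighbours, up to 5 on each side of a member in the RefSeq gene order, 1 did not overlap between the strains: Tor3a near Qsox1, with medians of 764 in C57BL/6J and 1205 in BALB/c, opposite in direction to Qsox1. Over all tested probe sets the share that did not overlap was 1.02%. The median absolute log2 strain difference was 0.14 for the neighbours and 0.15 for all tested probe sets. The widest among the neighbours was Clip4 near Xdh, at 1.30 in the same direction as Xdh. Its medians were 639 in C57BL/6J and 168 in BALB/c, and its ranges overlapped. Genes with related functions were also looked at, and nothing is read from counts of 0 in such short lists beside a share of 1.02%. The count was 0 of 8 tested interferon-induced GTPases, 0 of 12 enzymes of glucose synthesis and fructose phosphates and 0 of 10 disulfide-forming genes. It was also 0 of 7 actin partners, 0 of 15 genes of the Wnt receptor complex, 0 of 9 purine genes and 0 of 5 pyridoxal phosphate decarboxylases.

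The response to bleomycin was tested with limma across all 8710 probe sets with Benjamini-Hochberg adjustment. Within a strain at 24 h and 14 d it does not use the contrast between strains by which members were chosen. That choice favours genes that vary little within a strain. The members had also been named from the 72 h contrast as labelled, so the 72 h results reuse bleomycin arrays of that choice. The strain difference in the response is built from strain differences, by which members were chosen. Its counts among members and their p-values are therefore given as a description. The 72 h bleomycin arrays were set against saline of 24 h and 14 d in their own strain, so the comparisons share control arrays and are not independent of one another. At 24 h, C57BL/6J had 0 of 10 member probe sets called (0 at an unadjusted p under 0.05, background 2.23%) and BALB/c 0 of 10 (1 unadjusted, background 0.218%).

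By the interaction test in limma, the response of Lrp5 to bleomycin differed between the strains at 14 d. Lrp5 also differed so at 72 h, where the controls were saline of other times. In BALB/c it read 74.4 and 58.1 after saline and 291 and 267 after bleomycin at 14 d. The arrays did not overlap, and the rise was 1.23 ± 0.30 on the log2 scale (SE, n = 2 arrays per group, limma adjusted p = 0.0131). It was 1 of 10 member probe sets called there, against a background of 13.3% of all probe sets. In C57BL/6J at 14 d Lrp5 read 651 and 770 after saline and 435 and 257 after bleomycin, a difference of -0.90 ± 0.30 that did not pass (limma adjusted p = 0.0727). The wide strain gap at saline 14 d (2.34 on the log2 scale) enters the difference between the strains in this response. That difference was -2.13 ± 0.42 (limma adjusted p = 0.00896), the 1 member probe set called of 10 where 7.43% of all were. It was not called with array weights (adjusted p = 0.0513). The BALB/c rise was not called without bleomycin array b (adjusted p = 0.0797) or without saline array a (0.0649) or b (0.0929).

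At 72 h Lrp5 read 64.8 and 237 in C57BL/6J after bleomycin, against 346 and 229 after saline at 24 h and 651 and 770 at 14 d. It was lower by a log2 change of -1.27 ± 0.26 (limma adjusted p = 0.00668), 1 of 10 member probe sets, against a background of 6.85%. The fall rested on array a: without it the change was -0.73 (adjusted p = 0.228). In BALB/c, Lrp5 read 241 and 241 after bleomycin at 72 h, against 161 and 190 after saline at 24 h and the low values at 14 d, a difference of 0.70 ± 0.26 that did not pass (limma adjusted p = 0.112). The strain difference in the 72 h response was -1.97 ± 0.36 (limma adjusted p = 0.0181). It was not called without BALB/c bleomycin 72 h array a (adjusted p = 0.134) or b (0.0848) or C57BL/6J bleomycin 72 h array a (0.120).

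The saline levels of Lrp5 differed among times. In C57BL/6J saline they were 288 ± 82.9 at 24 h and 710 ± 84.3 at 14 d, and in BALB/c saline 176 ± 20.2 at 24 h and 66.2 ± 11.5 at 14 d (mean ± SD, n = 2 arrays). The bleomycin groups lay closer together, at 298 ± 132, 151 ± 122 and 346 ± 126 in C57BL/6J at 24 h, 72 h and 14 d, and 409 ± 34.2, 241 ± 0.50 and 279 ± 17.1 in BALB/c. The order of the group means ran from C57BL/6J saline 14 d at the top to BALB/c saline 14 d at the bottom, outside saline 72 h. When saline 14 d replaced saline 24 h as the C57BL/6J control of bleomycin 24 h, the Lrp5 change went from 0.01 to -1.08 (limma adjusted p = 0.0434).

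**Figure D4:**
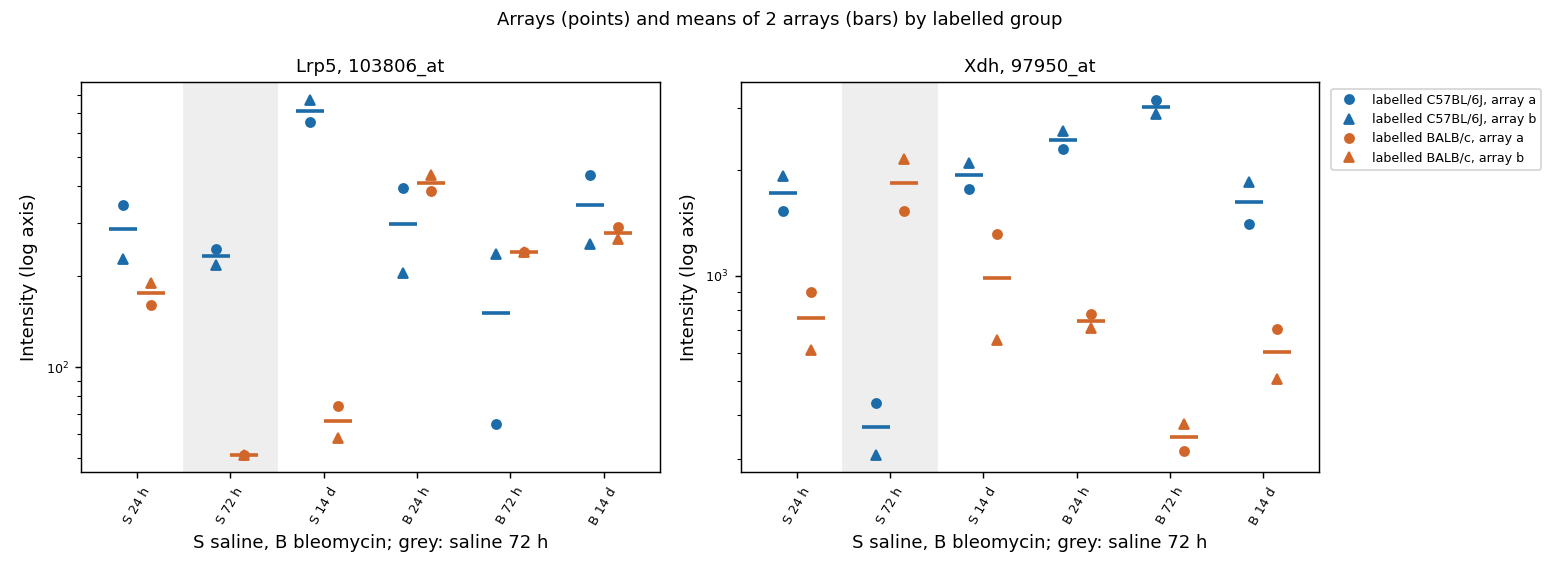
Intensity (log axis) of Lrp5 and Xdh on every array by labelled group (S saline, B bleomycin), with bars at the mean of 2 arrays and grey for saline 72 h. Lrp5 is highest at 710 in C57BL/6J saline 14 d and crosses between strains, while Xdh stays higher under the label C57BL/6J outside the grey band and is farthest apart at bleomycin 72 h, 3030 against 347.

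Xdh was lower in BALB/c after bleomycin at 72 h than after saline of 24 h and 14 d. It read 316 and 378 after bleomycin, against 899 and 615 after saline at 24 h and 1317 and 653 at 14 d. The bleomycin arrays lay below all 4 saline arrays, and the change was -1.08 ± 0.23 (SE, limma adjusted p = 0.00905), 1 of 10 member probe sets, where 6.64% of all were called. Xdh read 434 and 308 on the saline 72 h arrays labelled C57BL/6J, which read against their label. The BALB/c change against those arrays was -0.07 (limma adjusted p = 0.970). In C57BL/6J it read 3169 and 2891 after bleomycin at 72 h, above the saline values of 1529, 1919, 1771 and 2100, a difference of 0.71 ± 0.23 that did not pass (limma adjusted p = 0.0704). The response differed between the strains by 1.79 ± 0.32 (limma adjusted p = 0.0145). Xdh and Lrp5 were the 2 of 10 member probe sets called in that difference, against a background of 0.792%. The members were chosen by strain differences, so nothing is read from this count.

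The Xdh calls at 72 h rested on few arrays. The fall in BALB/c was not called without bleomycin array a (adjusted p = 0.141) or b (0.0700), and the strain difference was not called without any 1 of the 4 bleomycin 72 h arrays (adjusted p from 0.0596 to 0.135). At 24 h Xdh read 2294 and 2586 in C57BL/6J after bleomycin and 775 and 711 in BALB/c. At 14 d it read 1405 and 1848 in C57BL/6J and 704 and 507 in BALB/c. Neither time gave a call in either strain, with changes of 0.49 and -0.25 in C57BL/6J and -0.00 and -0.57 in BALB/c. Without BALB/c saline 14 d array b the change in BALB/c at 14 d was -1.03 and was called (limma adjusted p = 0.0421).

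The control at 72 h decided how many members were called. Set against the saline 72 h arrays as labelled, 8 of 10 member probe sets were called in each strain and 9 of 10 in the strain difference. Those arrays read against their labels and the members were picked for strain, so nothing is read from these counts. Set against the same arrays with exchanged strain labels, 0 of 10 were called in each strain and in the strain difference. The shares over all probe sets at these settings are not given here. Against the exchanged arrays Lrp5 in C57BL/6J read 0.67 (adjusted p = 0.285) and Xdh in BALB/c -0.07 (adjusted p = 0.970), and the strain differences were 0.63 (adjusted p = 0.873) and 0.78 (adjusted p = 0.769). Leaving the 4 arrays out of the fit kept the calls of Lrp5 and Xdh at 72 h, with adjusted p from 0.0107 to 0.0308.

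**Figure D5:**
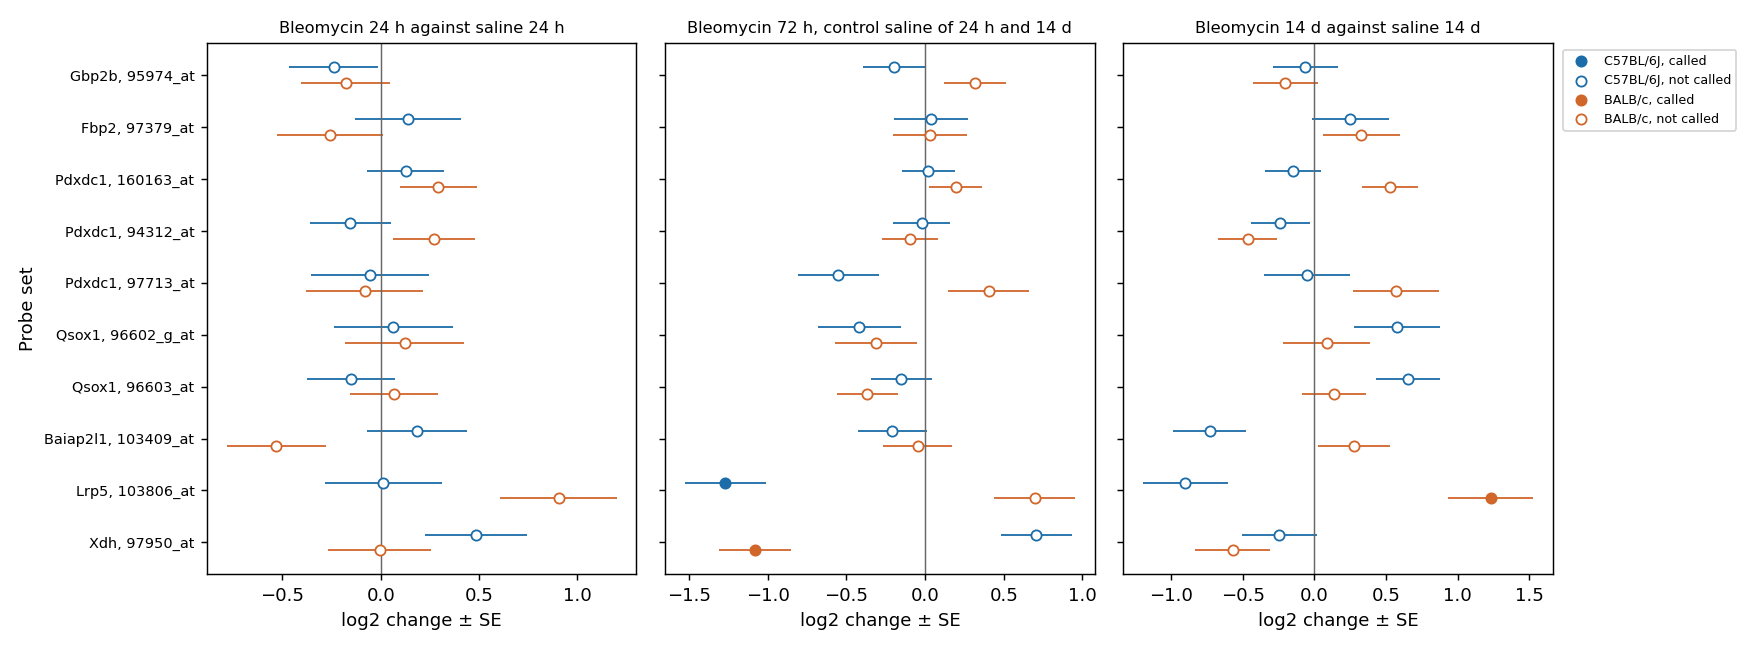
Change with bleomycin on the log2 scale (± SE) of the 10 tested member probe sets in C57BL/6J (blue) and BALB/c (orange) at 24 h, 72 h and 14 d; filled points are called by limma at an adjusted p under 0.05. The filled points are Lrp5 in BALB/c at 14 d (1.23), Lrp5 in C57BL/6J at 72 h (-1.27) and Xdh in BALB/c at 72 h (-1.08).

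The other members gave no call for bleomycin. In C57BL/6J at 14 d, 0 of 10 probe sets were called (3 unadjusted, background 7.43%), with Qsox1 96603_at at 0.65 (2104 and 1842 after saline, 3037 and 3266 after bleomycin, limma adjusted p = 0.0842) and Baiap2l1 at -0.73 (713 and 647, then 299 and 459, limma adjusted p = 0.0885). In both, the arrays of the groups did not overlap. In BALB/c at 14 d Pdxdc1 160163_at read 144 and 254 after saline and 287 and 357 after bleomycin (0.53, limma adjusted p = 0.0825), and its fellow 94312_at -0.47 (0.144). Gbp2b and Fbp2 gave changes between -0.26 and 0.33 over both strains and 3 times. In C57BL/6J both read low, where the offset damps a change. No member was called in the strain difference at 24 h (1 unadjusted, background 0.023%). The same held between bleomycin 14 d and bleomycin 24 h, in C57BL/6J (4 unadjusted, background 8.67%) and in BALB/c (1 unadjusted, background 7.66%).

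Genes related to the members were followed through bleomycin in 7 lists with 66 tested genes. The share called over all probe sets was 2.23% in C57BL/6J at 24 h, 6.85% at 72 h and 7.43% at 14 d, and in BALB/c 6.64% at 72 h and 13.3% at 14 d. Of the 66 genes, 2, 8 and 5 were called in C57BL/6J at those times, and 3 and 11 in BALB/c, so the lists' counts are given as a description only. Among 8 interferon-induced GTPases, Iigp1, a GTPase of the vacuole defence system, rose by 1.20 in C57BL/6J at 14 d, 1.02 in C57BL/6J at 72 h and 1.07 in BALB/c at 72 h (limma adjusted p = 0.0124, 0.0148 and 0.0125), the 1 of 8 called in each. The lists' medians at those points were -0.28, 0.50 and 0.47 against -0.07, 0.00 and -0.03 over all tested probe sets. From bleomycin 24 h to 14 d in C57BL/6J, 4 of 8 fell, Irgm1 by a log2 change of -1.07, Igtp -1.01, Ifi47 -0.92 and Gbp2 -0.63, while 8.67% of all probe sets were called in either direction. The list median was -0.70 against -0.08 over all.

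Around Lrp5, the Wnt inhibitor Sfrp1 rose in both strains at 14 d, by 1.90 ± 0.30 in C57BL/6J (limma adjusted p = 0.00129) and 1.18 ± 0.30 in BALB/c (limma adjusted p = 0.0161). It was the 1 of 15 genes called in C57BL/6J (7.43% of all probe sets). In BALB/c 2 of 15 were called (13.3% of all), the other being the receptor Fzd4, lower by a log2 change of -1.09 that was -0.31 without bleomycin array b. At 72 h in C57BL/6J, Sfrp1 rose (1.03) and the receptor Fzd2 (-0.93) and the adaptor Dvl2 (-0.82) fell, and in BALB/c the receptor Fzd7 fell (-0.82). The sister co-receptor Lrp6 overlapped between the strains, at medians of 1573 in C57BL/6J and 1854 in BALB/c, and was not called in any of the 11 comparisons.

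Around Xdh, of 9 purine genes Pnp, the phosphorylase upstream of xanthine dehydrogenase, rose in C57BL/6J at 24 h (0.63) and 72 h (0.53) and in BALB/c at 14 d (0.50). Nt5e, which frees adenosine outside cells, rose in C57BL/6J at 14 d (0.97 ± 0.19, limma adjusted p = 0.00537), and its response differed from BALB/c by 1.21 (adjusted p = 0.0165). Ak1, adenylate kinase, rose in BALB/c at 14 d (0.81). No purine gene of the list was called lower in any of the 11 comparisons. Of all probe sets 0.023% to 13.3% were called in these, in either direction, so nothing is read from that count in 9 genes.

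Around Qsox1, of 10 disulfide-forming genes 3 fell and 1 rose in BALB/c at 14 d, where 13.3% of all probe sets were called: the oxidase Ero1a (-0.61) and the isomerases P4hb (-1.91) and Pdia4 (-1.06) fell, and the peroxiredoxin Prdx4 rose (0.88). At 72 h in BALB/c the isomerase Pdia6 fell (-1.10). In C57BL/6J at 14 d 0 of 10 were called by limma, against 7.43% of all probe sets. Around Baiap2l1, of 7 actin partners Mtss2 fell in C57BL/6J at 14 d (-0.81) and 72 h (-0.73) and Rac1, a small GTPase, fell in BALB/c at 14 d (-1.83). The response of both differed between strains at 14 d (-1.36 and 2.72). Around Fbp2, of 12 enzymes Aldoa, the aldolase of muscle, fell in C57BL/6J at 24 h (-1.21), a comparison that uses the saline 24 h arrays with the unusual maxima. Against saline 14 d the Aldoa change was -0.26 (limma adjusted p = 0.686) and that of Pnp at 24 h 0.26 (limma adjusted p = 0.392).

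Around Pdxdc1, the histamine-forming enzyme Hdc moved in opposite directions at 14 d: it fell by a log2 change of -0.78 ± 0.21 in C57BL/6J (limma adjusted p = 0.0332) and rose by 1.09 ± 0.21 in BALB/c (limma adjusted p = 0.00404). The difference was -1.87 ± 0.30 (limma adjusted p = 0.00315). Of the other 4 tested decarboxylases, Sgpl1 rose in BALB/c at 14 d (0.69), and in C57BL/6J at 72 h Odc1, of polyamine synthesis, rose (0.57) and Csad fell (-0.42). None of these related genes separated the strains; their strain ranges overlapped.

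The calls among the related genes rested on few arrays. Of 53 called results among them, 5 were called in all fits that left out 1 array and under all other alternatives. These 5 were Sfrp1 in C57BL/6J at 14 d, the strain differences of Hdc and Mtss2 at 14 d, and Nt5e and the Wnt inhibitor Dkk3 in C57BL/6J from bleomycin 24 h to 14 d. The other 48 were lost without at least 1 array, and none of the 53 changed direction. All 11 calls in BALB/c at 14 d were lost without bleomycin array b, and all 8 in C57BL/6J at 72 h without bleomycin array a. In C57BL/6J at 14 d, the calls of Iigp1, Mtss2, Nt5e and Hdc were lost without saline array a. From bleomycin 24 h to 14 d in C57BL/6J, those of Irgm1, Igtp, Ifi47 and Gbp2 were lost without bleomycin 24 h array a.

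Some named calls lay close to the threshold. Of 24 fits without 1 array, Gbp2 was called in 5, Csad in 5, Pnp in 7 in both C57BL/6J at 24 h and BALB/c at 14 d, Aldoa in 10 and Ak1 in 13. With the saline 72 h arrays under exchanged strain labels as the control, 2 of the 8 calls in C57BL/6J at 72 h were kept, Pnp and Csad, and 0 of the 3 in BALB/c.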

How the data were processed

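Lung RNA of 24 samples was hybridised to 24 single-sample Affymetrix arrays, per the labels. Each deposited value is a linear intensity of a probe set on an array. How the probes were summarised is not stated in the sources used here. Trimmed means agreed within 799.87 to 799.94, so no further normalization was applied. Groups followed the sample titles. Names came from the array annotation: 10833 of 12422 probe sets outside the 66 controls had 1 gene, 396 several and 1193 none. Of 10855 with 1 gene, controls included, 10837 matched a RefSeq gene table.

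An offset of 92 was added before log2. Probe sets above 225.7, the 40th percentile, on 2 or more arrays entered the tests, 8710 in total. limma 3.58.1 (R 4.3.3) fitted a mean per group (12 residual degrees of freedom, variance trend), two-sided, with Benjamini-Hochberg adjustment and calls at an adjusted p under 0.05. The script was tested on simulated data. The precision is limited by 2 arrays per group.

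The members, gene lists and comparisons were chosen with earlier results of these data known. Every member probe set is named. Other genes were named by fixed rules: the 3 most alike, neighbours that separated, up to 3 called genes per list with the smallest p, and markers. The fourth GTPase named between bleomycin times, Gbp3, Gbp7, Lrp6, Fbp1, Clip4 and Ctse lie outside that rule or were named after their values were seen. Alternatives were other offsets, filters, normalization, weights, controls, a replicate block and each array left out.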

Additional observations from a re-analysis of the deposited data

Results flagged for a closer look

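The interaction test in limma is built from strain differences, by which members were chosen. By that test the responses of Lrp5 and Xdh to bleomycin differed between the strains. Lrp5 differed by -2.13 at 14 d, and by -1.97 at 72 h against the saline arrays of 24 h and 14 d, with a negative change in C57BL/6J and a positive one in BALB/c. Xdh differed by 1.79 at 72 h against the same controls, with changes of -1.08 in BALB/c and 0.71 in C57BL/6J. Against the saline 72 h arrays with exchanged strain labels neither 72 h difference was called, at 0.63 for Lrp5 and 0.78 for Xdh. The 14 d call of Lrp5 was lost with array weights (limma adjusted p = 0.0513). The 72 h call of Xdh was lost without any single bleomycin 72 h array. Among genes related to the members, 6 of 66 passed the same test at 14 d, where 7.43% of all probe sets did, and 1 of 66 at 72 h, against 0.792%. At 14 d they were -1.87 for Hdc, -1.36 for Mtss2, 2.72 for Rac1, 3.01 for P4hb, 1.21 for Nt5e and -0.79 for Dvl1, and at 72 h -1.09 for Mtss2.

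The strain order of 8 probe sets at saline 72 h, as labelled, ran opposite to the other 5 conditions. For each probe set, both arrays of one label lay above both of the other. The log2 differences, C57BL/6J minus BALB/c as labelled, were 3.29 for Gbp2b, 2.15 for Fbp2, 4.56 for Pdxdc1 97713_at and 2.08 for Baiap2l1. They were -2.32 for Pdxdc1 160163_at, -1.82 for Pdxdc1 94312_at, -1.51 for Qsox1 96603_at and -2.05 for Xdh. These differences were not tested.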

How the results depend on the processing

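Outside the comparisons with the saline 72 h controls, 989 of 999 recomputed results kept their side of the threshold under the alternatives. So did 2611 of 2640 when each array was left out in turn. In these counts a called result also had to keep its direction. Direction was not checked where neither fit gave a call. The count of called member probe sets moved as follows, given without the share over all probe sets, so nothing is read from it. With 3 times the offset it was 2 in C57BL/6J at 14 d, 2 in BALB/c at 14 d, 2 in C57BL/6J at 72 h and 1 for C57BL/6J bleomycin 14 d against 24 h. It was 2 in BALB/c at 14 d after quantile normalization. With array weights it was 2 in BALB/c at 72 h and 0 for the strain difference at 14 d (Lrp5 adjusted p = 0.0513). It was 1 for C57BL/6J bleomycin 14 d against 24 h without the 4 saline 72 h arrays, and 1 in C57BL/6J at 24 h with saline 14 d as the control, where Lrp5 turned to -1.08.

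With saline 72 h as labelled as the control, the counts were 8 in C57BL/6J, 8 in BALB/c and 9 for the strain difference, and several changes reversed. In C57BL/6J these were Fbp2 (-2.26), Pdxdc1 94312_at (1.82) and Qsox1 96603_at (2.30). In BALB/c they were Pdxdc1 160163_at (-1.62) and Baiap2l1 (2.02), and for the strain difference Fbp2 (-4.79) and Pdxdc1 160163_at (4.18). With exchanged labels the counts were 0, 0 and 0, and Lrp5 reversed to 0.67 in C57BL/6J and 0.63 for the strain difference. The strain order held for 0 probe sets with all 24 arrays as labelled. The controls were changed by construction, and the cause of the other moves was not tested. The counts with saline 72 h as labelled follow from the choice of members by strain, and nothing is read from them.

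Leaving out each array in turn gave counts of 0 to 1 in C57BL/6J at 14 d, BALB/c at 14 d and 72 h, and C57BL/6J bleomycin 14 d against 24 h. The range was 0 to 2 in C57BL/6J at 72 h and for the strain difference at 72 h, and 1 to 2 for the strain difference at 14 d. The strain order stayed at 8. With the array letter as a replicate block, 0 of 110 member calls changed, the count for C57BL/6J at 72 h staying at 1. The letters did not pair the samples (median correlation of deviations 0.01 over 66 pairs of groups, 14 above 0.1). With 2 arrays per group and no detection call, low intensities such as Gbp2b in C57BL/6J have no lower bound.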
